A study of Mus musculus with 49 samples.

Results

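The genes described here are Ndnf, Fam20c, Trib2, Necab1, Slitrk6, Gm37711, Gm10493 and B3gat1, 8 of the 52636 genes in the count table. They were picked from measured values, because their level appeared to depend on the type of medium spiny neuron (MSN) more than on the method used to collect its RNA, or because their level was far higher in D2 than in D1 RiboTag libraries. The differences between D1- and D2-MSNs given for these 8 genes are therefore a description and carry no test. All RNA came from the nucleus accumbens (NAc) of mice on a C57BL/6J background, each library from a different mouse, whose age is not given in the sources used here. In nuclear-FACS, nuclei were sorted from frozen NAc of Drd1-cre or Drd2-cre mice crossed to Thy1-loxPSTOPloxP-EGFP-F, which carried GFP as a nuclear label (6 D1 and 5 D2 libraries, labelled male). For whole cell-FACS, fresh NAc was digested with papain, and the cells sorted carried a fluorophore in their cytoplasm under the Drd1 or the Drd2 promoter (8 D1 and 6 D2 libraries, labelled male). In RiboTag, polysomes were pulled down through an HA tag on the ribosomal protein Rpl22, from fresh NAc of Drd1-cre or Drd2-cre mice crossed to Rpl22-loxPexon4loxP-exon4-HA (6 D1 and 6 D2 libraries labelled male, called RiboTag M, and 5 D1 and 5 D2 libraries labelled female, called RiboTag F). In every group, the cells were those in which the Drd1 or Drd2 promoter had driven Cre or the fluorophore, so that any other cell using that promoter was collected too.

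MSNs are the GABAergic projection neurons that make up most of the striatum. D1-MSNs carry the dopamine receptor Drd1 and D2-MSNs carry Drd2, which couple to opposite changes in cyclic AMP, and the peptides Pdyn and Tac1 mark the former while Penk marks the latter. Most of the 8 genes act outside these textbook markers. Ndnf and Fam20c belong to the secretory pathway, Slitrk6 and the product of B3gat1 act at the cell surface, Necab1 binds calcium, Trib2 is a pseudokinase, and Gm37711 and Gm10493 are annotated transcripts with no named product.

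Total counts ranged from 3701255 to 68777008 per library, and 3 counts, the floor used here, amount to levels between 0.0436 and 0.811 CPM, the unit in which counts relative to the library total are given here. The floor covers counting error only. In 6 of the 12 libraries labelled RiboTag M (D1 numbers 1 to 4 and D2 numbers 2 and 6), the level of Xist, the RNA that coats the inactive X chromosome, was above the summed level of the Y-linked genes Ddx3y, Uty, Kdm5d and Eif2s3y. Xist was also above them in 10 of 10 RiboTag F libraries and in no nuclear or whole cell library. RiboTag M fold changes and calls are therefore given with and without these 6 libraries, whose removal left 2 D1 and 4 D2 libraries, while levels are given over all 12. Among nuclear and whole cell libraries, the 10 highest genes held more than 50% of all counts in nuclear D1 libraries 1, 5 and 6 and whole cell D2 library 2. In every RiboTag library they held more, 84.9% to 88.3%, so that RiboTag levels in CPM are relative to totals made up mostly of a few genes. RiboTag libraries were not left out for this. The labelled cell types were checked by 5 D1 markers (Drd1, Pdyn, Tac1, Isl1, Chrm4) and 5 D2 markers (Drd2, Adora2a, Penk, Gpr6, Sp9). All 5 D1 markers were called lower in D2 whole cell libraries and 4 of 5 in each RiboTag comparison, where Isl1 was also lower (log2 fold change −1.96, adjusted p = 7.29e-08 in M, and −1.39, adjusted p = 0.00013 in F, by edgeR) but under the mean count that a call requires. The D2 markers were called higher, 5 of 5, in each of these 3 comparisons, and without the 6 libraries the RiboTag M counts were again 4 and 5. In nuclear libraries, 1 of the 4 D1 markers tested was lower in D2, and of 4 D2 markers tested 1 was higher and 1 was lower. The summed level of the D2 markers spanned 194 to 612 CPM in nuclear D1 and 226 to 519 CPM in nuclear D2 libraries, which overlap.

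The first question was whether these genes depend on cell type more than on method in the counts analysed here. A linear mixed model split the variance of log2 CPM over the 37 M libraries of all methods into a share for method, a share for cell type and a residual. The cell type share was above the method share for Ndnf (34.4% against 19.1%) and for Gm10493 (53.0% against 28.4%). Slitrk6 (34.8% against 35.5%) and Gm37711 (35.6% against 36.6%) lay just on the other side. With the RiboTag F libraries added, the cell type share was the larger for 4 genes, Ndnf, Gm10493, Slitrk6 (44.2% against 27.1%) and Gm37711 (46.9% against 30.7%). The added libraries were all from RiboTag, which gave that method more weight. The model had no term for sex or for a cell type difference that varies with method. For the remaining 4 genes the data go against the rule that chose them. The cell type share over the M libraries was 6.05% for Fam20c, 4.64% for Trib2, 4.23% for Necab1 and 2.54% for B3gat1, beside method shares of 76.1%, 58.4%, 65.1% and 43.2%. For comparison, the cell type share was 55.5% for Drd1 and 77.8% for Drd2, and its median over 10590 genes was 2.09%, with 498 of these genes above their method share. The size of the method share varied with the scaling, which here ran over all libraries in the model. Scaled within method, it was 91.0% for Fam20c, 90.0% for Trib2, 87.0% for Necab1, 85.9% for B3gat1 and 0% for Gm10493. The cell type share was then again the larger for Ndnf and Gm10493 only.

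**Figure D1:**
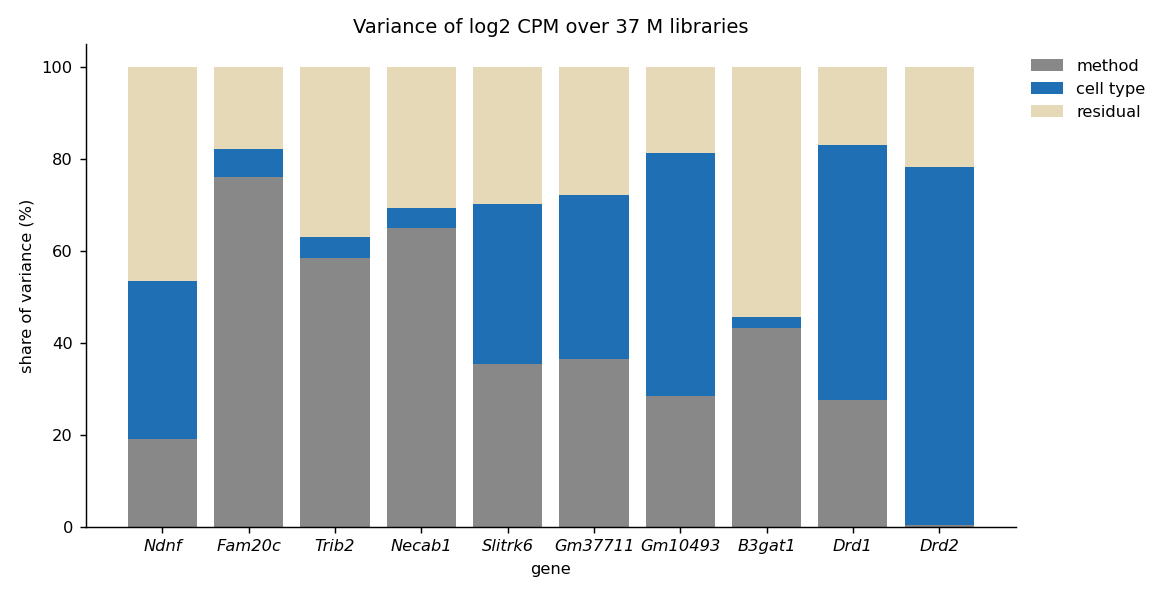
Share of the variance of log2 CPM (percent, stacked to 100) that a mixed model gave to method (grey), cell type (blue) and the residual (beige), for the 8 genes and for Drd1 and Drd2, over 37 M libraries. The blue segment is larger than the grey one in Ndnf, Gm10493, Drd1 and Drd2, nearly equal to it in Slitrk6 and Gm37711, and a thin band of 2.54% to 6.05% in Fam20c, Trib2, Necab1 and B3gat1.

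Members were compared with all genes by the fit within each method, where a gene was called at an adjusted p of 0.05 or less in edgeR's quasi-likelihood test if its log2 fold change also exceeded 0.38 in size and its mean normalized count lay in the upper 75% of genes. In RiboTag M libraries, 8 of 8 genes passed the filter on low values and 4 were called (Ndnf, Fam20c, Trib2 and Necab1), where 2.56% of all genes tested were. Without the 6 libraries 3 were called (Ndnf, Fam20c and Trib2), where 2.85% of all genes were. In RiboTag F libraries, 8 passed and 4 were called (Ndnf, Fam20c, Necab1 and B3gat1), where 1.9% of all genes were. Slitrk6, Gm37711 and Gm10493 had larger fold changes than Fam20c, Trib2, Necab1 and B3gat1 in both but lay under the required mean count. In whole cell libraries, 7 passed and 2 were called (Gm37711 and B3gat1), where 1.06% of all genes were. In nuclear libraries, 3 passed (Gm37711, Gm10493 and B3gat1) and none was called, where 12.2% of all genes were. Since the rule used these contrasts, nothing is read from these counts. The D1 and D2 libraries did not overlap for 7 of the 8 genes in RiboTag M, 8 in RiboTag F, 1 in whole cell and 2 in nuclear libraries. The share of all genes without overlap was not computed, so nothing is read from these counts either. In bulk RNA, fewer cells that express a gene and less of its RNA per cell cannot be told apart.

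Ndnf encodes neuron-derived neurotrophic factor, a secreted protein with fibronectin type III domains that in cortex marks neurogliaform interneurons. The gene spans chr6:65671590-65712326 on the plus strand (GRCm38). Its level in RiboTag M libraries was at lowest 0.429, at the median 0.501 and at highest 0.915 CPM in D1, against 12.7, 16.6 and 18.3 CPM in D2. In the 5 RiboTag F D1 libraries it was 0.336, 0.689, 1.06, 0.392 and 0.411 CPM, and in the 5 D2 libraries 11.6, 14.2, 14.7, 12.5 and 18.8 CPM. Every D2 RiboTag library was thus far above every D1 library of its set. The D2 mean was 28.7-fold the D1 mean in RiboTag M, a log2 fold change of 4.86 (SE 0.13), and 24.9-fold in RiboTag F, a log2 fold change of 4.63 (SE 0.19). Without the 6 M libraries with Xist above the Y-linked genes, the log2 fold change was 4.49 (SE 0.21). The counts behind these levels were 11 to 36 fragments in D1 and 365 to 742 in D2 RiboTag libraries.

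The D2 excess of Ndnf was not seen in whole cells. There its level was at lowest 6.10, at the median 11.5 and at highest 16.2 CPM in D1, and 1.64, 7.78 and 13.2 CPM in D2. The D1 mean was the higher, 1.51-fold, and the groups overlapped. In nuclear libraries the level was at lowest 1.72, at the median 5.12 and at highest 12.1 CPM in D1, while the 5 D2 libraries gave 19.6, 13.8, 16.0, 16.9 and 14.9 CPM. The nuclear D2 libraries were all above the D1 libraries, with a D2 mean 2.80-fold the D1 mean, and this ratio was 1.61 when libraries were scaled on all genes above 1 CPM. Ndnf did not pass the filter on level per length (CPM per kilobase of gene span, FPKM), which asks for 1 FPKM in at least 1 library, in either sort. Without that filter its log2 fold change was 0.65 (SE 0.30) in nuclear and −0.28 (SE 0.38) in whole cell libraries, and whether the difference between methods was larger than error was not tested.

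Markers of cholinergic interneurons, which carry Drd2 and are few in the striatum, were among those that moved with Ndnf. The summed level of 5 such markers (Chat, Slc5a7, Slc18a3, Slc17a8, Lhx8) ran from 1.01 to 2.15 CPM in RiboTag M D1 and from 5.31 to 7.06 CPM in D2 libraries, and from 1.14 to 2.38 and 3.14 to 8.52 CPM in RiboTag F. In nuclear libraries the sum was 13.3 to 48.2 CPM in D1 and 65.2 to 91.4 CPM in D2, and in whole cell libraries the ranges of 39.1 to 105 and 27.1 to 92.2 CPM overlapped. None of the 5 was at 0 across a group, none of the 5 passed the filter in RiboTag or whole cell libraries, and the 1 tested in nuclear libraries was not called. Other lists moved in nuclear libraries too, without overlap. The summed level of 5 endothelial markers was 15.1 to 142 CPM in nuclear D1 and 161 to 223 CPM in nuclear D2 libraries. That of 7 GABA interneuron markers was 198 to 316 and 361 to 424 CPM, so that on this scaling the nuclear rise in sums was not particular to cholinergic genes. The sums were not computed on another scaling. Reln and Nos1, the GABA interneuron markers with the highest nuclear means, had D2 to D1 ratios of 1.28 and 2.65. When libraries were scaled on all genes above 1 CPM, these ratios were 0.679 and 1.51, so the direction of the GABA interneuron sum may depend on the scaling. Single GABA interneuron markers differed from their sum, and the 2 tested in nuclei were lower in D2. Sst was at −1.91 (SE 0.37, adjusted p = 0.00935) and Npy at −0.88 (SE 0.31, adjusted p = 0.066) on the log2 scale, by edgeR. In RiboTag M libraries the endothelial sum was 0.661 to 2.27 CPM in D1 and 0.497 to 0.741 CPM in D2, which overlap, and the GABA interneuron sum was the lower in D2, at 41.8 to 56.3 and 26.7 to 35.3 CPM. The ratio of D2 to D1 means in RiboTag M was 5.22 for Chat, the enzyme that makes acetylcholine, and 7.35 for Slc5a7, the choline transporter, against 28.7 for Ndnf. Without the 6 libraries these ratios were 4.18, 7.18 and 22.5, and the cholinergic sum was 1.17 to 2.15 CPM in D1 and 5.31 to 7.06 CPM in D2. Of 7 GABA interneuron markers, 2 were tested in RiboTag libraries and both fell in D2, Sst by 0.95 (SE 0.12, adjusted p = 2.29e-06) and Npy by 0.57 (SE 0.18, adjusted p = 0.0409) on the log2 scale in RiboTag M, by edgeR. Without the 6 libraries Sst was at −0.91 (adjusted p = 0.000117 in edgeR), and Npy lost its call at −0.47 (adjusted p = 0.439). The part of other cells in the Ndnf difference was not tested.

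**Figure D2:**
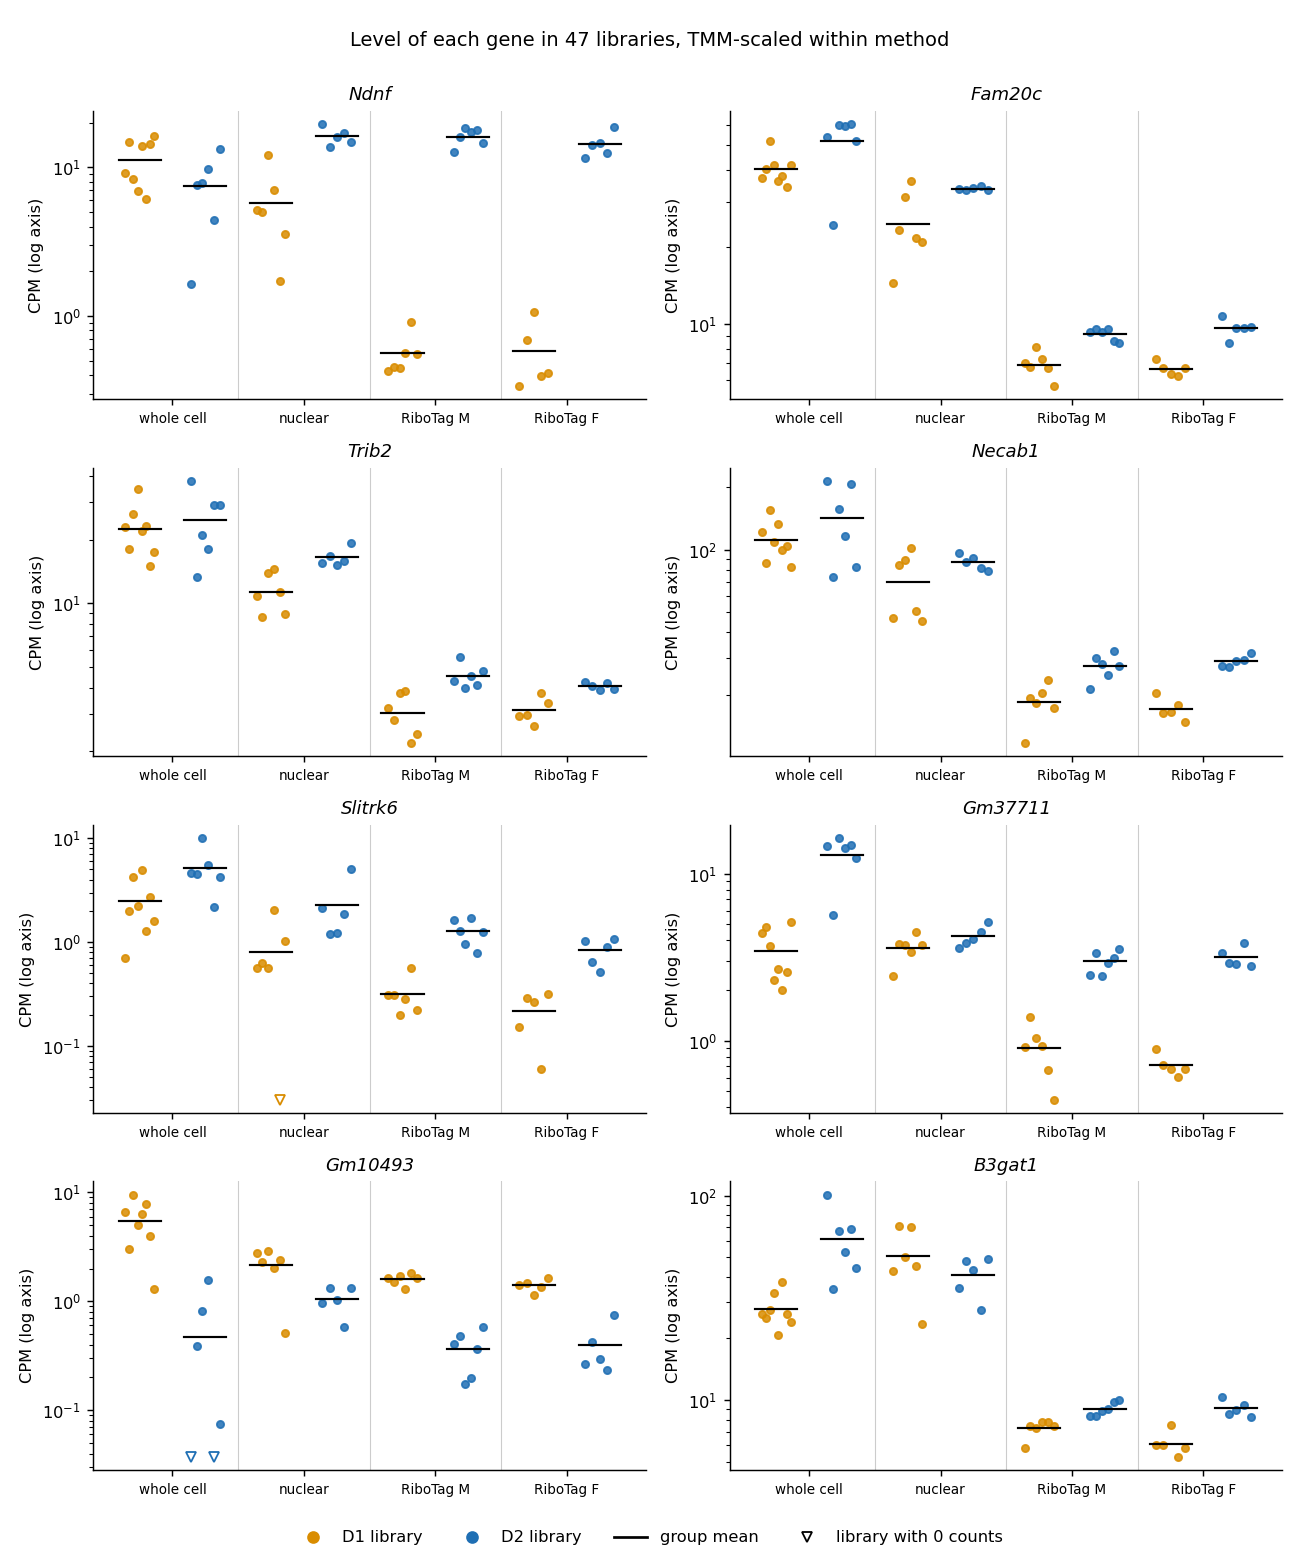
Level of each gene in CPM (log axis) in 47 libraries by method, with D1 libraries in orange, D2 libraries in blue and a black line at each group mean; an open triangle marks a library with 0 counts, drawn below the lowest value. Orange and blue points are separated in both RiboTag sets for Ndnf, Fam20c, Trib2, Slitrk6, Gm37711, B3gat1 and, in the other direction, Gm10493, while most nuclear and whole cell panels show overlap.

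Slitrk6 encodes a transmembrane protein with leucine-rich repeats that takes part in neurite growth and synapse formation, and it lies at chr14:110748580-110755149 on the minus strand. It was the lowest-counted of the protein-coding genes here. In RiboTag M libraries its level was at lowest 0.198, at the median 0.295 and at highest 0.563 CPM in D1, against 0.788, 1.26 and 1.69 CPM in D2. In RiboTag F the D1 libraries gave 0.153, 0.287, 0.264, 0.0603 and 0.314 CPM and the D2 libraries 1.02, 0.641, 0.520, 0.904 and 1.08 CPM. Both RiboTag sets separated, with D2 means 4.04-fold and 3.86-fold the D1 means, although the D1 values rest on 2 to 16 fragments a library. The log2 fold change was 2.03 (SE 0.25) in RiboTag M, 1.68 (SE 0.41) without the 6 libraries, and 1.90 (SE 0.31) in RiboTag F. In whole cells the level was at lowest 0.703, at the median 2.11 and at highest 4.99 CPM in D1 and 2.16, 4.59 and 10.1 CPM in D2, which overlap, with a log2 fold change of 1.23 (SE 0.48). In nuclear libraries, where 1 D1 library had no count, the means were 0.801 ± 0.682 CPM (SD, n = 6) in D1 and 2.29 ± 1.62 CPM (SD, n = 5) in D2, a difference within the spread of the D2 libraries.

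Gm37711 is a gene model of 2 exons at chr4:132104830-132109363 on the minus strand, kept in the annotation to await experimental support. It begins 1362 bases downstream of Oprd1, the delta opioid receptor gene, on the same strand. In whole cell libraries its level was at lowest 2.01, at the median 3.19 and at highest 5.11 CPM in D1 and 5.63, 14.5 and 16.4 CPM in D2. These groups did not overlap, and the D2 mean was 3.77-fold the D1 mean (log2 fold change 1.89, SE 0.33). In RiboTag M libraries it was 0.441, 0.924 and 1.39 CPM in D1 and 2.44, 3.03 and 3.55 CPM in D2, again without overlap. In RiboTag F the D1 libraries gave 0.886, 0.718, 0.675, 0.603 and 0.677 CPM and the D2 libraries 3.36, 2.93, 2.87, 3.85 and 2.80 CPM. The log2 fold change was 1.70 (SE 0.17) in RiboTag M, 2.30 (SE 0.25) without the 6 libraries and 2.15 (SE 0.14) in RiboTag F. In nuclear libraries the means of 3.59 ± 0.665 CPM (SD, n = 6) and 4.21 ± 0.597 CPM (SD, n = 5) differed by about the spread between libraries.

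Oprd1, which the rule did not choose, was tested in the same fits and moved the same way. It rose in D2 by 1.39 in whole cells (SE 0.29, adjusted p = 0.0271), by 1.67 in RiboTag M (SE 0.15, adjusted p = 2.18e-08) and by 1.83 in RiboTag F (SE 0.11, adjusted p = 5.14e-10) on the log2 scale, by edgeR. Without the 6 libraries the RiboTag M value was 2.02 (SE 0.23, adjusted p = 1.29e-05). Its means went from 14.7 to 39.6 CPM in whole cells, from 1.24 to 3.97 CPM in RiboTag M and from 1.23 to 4.41 CPM in RiboTag F. In nuclear libraries it did not pass the filter, and its level was 9.63 to 20.6 CPM in D1 and 21.0 to 24.9 CPM in D2. The D2 to D1 ratio in nuclear libraries was 1.51 for Oprd1, and 0.834 when libraries were scaled on all genes above 1 CPM, so that its nuclear direction depends on the scaling. Whether fragments on Gm37711 come from transcripts of Oprd1 was not tested.

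**Figure D3:**
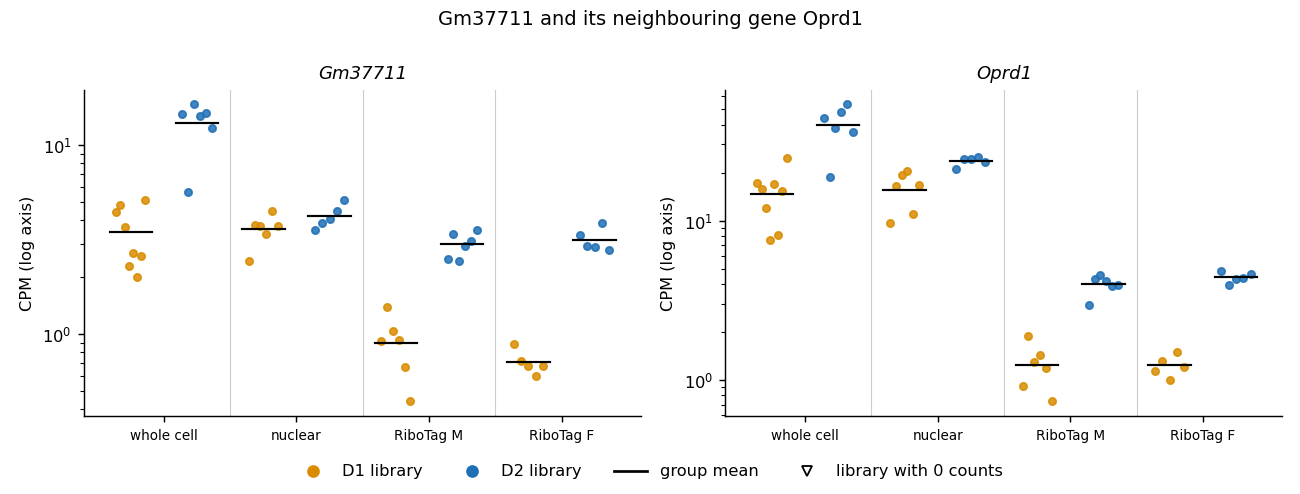
Level in CPM (log axis) of Gm37711 and its neighbour Oprd1 in each library by method, with D1 in orange, D2 in blue and a black line at each group mean. The group means of both genes are higher in D2 in whole cell and RiboTag libraries, and in nuclear libraries Oprd1 spans 9.63 to 20.6 CPM in D1 and 21.0 to 24.9 CPM in D2, a direction that turns when libraries are scaled on all genes above 1 CPM.

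Gm10493 is annotated as a processed pseudogene of 610 bases. Because the authors counted without regard to strand and counted a fragment for every gene it overlaps, its count cannot be assigned to transcripts of Gm10493 alone. Gm10493 was the only gene of the 8 with higher means in D1 than in D2 by all methods. In whole cell libraries its level was at lowest 1.30, at the median 5.68 and at highest 9.54 CPM in D1, and 0, 0.232 and 1.56 CPM in D2, where 2 of the 6 libraries had no count. In RiboTag M libraries it was 1.29, 1.65 and 1.83 CPM in D1 and 0.173, 0.383 and 0.581 CPM in D2. In RiboTag F it was 1.41, 1.46, 1.14, 1.36 and 1.62 CPM in D1 and 0.268, 0.427, 0.294, 0.233 and 0.753 CPM in D2. The RiboTag sets did not overlap, with D1 means 4.38-fold and 3.54-fold the D2 means, and in whole cells only 1 pair of libraries (D1 number 8 at 1.30 and D2 number 4 at 1.56 CPM) crossed. The log2 fold change was −2.18 (SE 0.21) in RiboTag M, −2.65 (SE 0.31) without the 6 libraries, −1.85 (SE 0.24) in RiboTag F and −3.23 (SE 0.81) in whole cells. In nuclear libraries it was −0.90 (SE 0.44), where D1 library 6, one of those with most counts in 10 genes, lay at 0.511 CPM, below every D2 library.

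Fam20c, Trib2 and Necab1 formed a group of genes with smaller D2 excesses. Fam20c (chr5:138754514-138810077, plus strand) encodes the Golgi kinase that phosphorylates many secreted proteins. In RiboTag M libraries its level was at lowest 5.69, at the median 6.89 and at highest 8.08 CPM in D1 and 8.44, 9.29 and 9.57 CPM in D2. In RiboTag F the D1 libraries gave 7.27, 6.72, 6.34, 6.24 and 6.70 CPM and the D2 libraries 10.7, 8.43, 9.59, 9.66 and 9.71 CPM. The sets were separate, though the D2 means were only 1.32-fold and 1.45-fold the D1 means, with log2 fold changes of 0.39 (SE 0.071) in M, 0.57 (SE 0.11) without the 6 libraries, and 0.53 (SE 0.072) in F. In whole cells the log2 fold change was 0.42 (SE 0.16), with 34.2 to 52.1 CPM in D1 and 24.5 to 60.6 CPM in D2, and 4 of the 6 D2 libraries above every D1 library.

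Trib2 (chr12:15791727-15816922, minus strand) is a Tribbles pseudokinase, which brings other proteins to a ubiquitin ligase. Its level in RiboTag M was at lowest 2.18, at the median 3.00 and at highest 3.84 CPM in D1 and 4.00, 4.41 and 5.59 CPM in D2. In RiboTag F it was 2.93, 2.96, 2.64, 3.77 and 3.36 CPM in D1 and 4.24, 4.06, 3.91, 4.21 and 3.95 CPM in D2, so that the gap between the groups was narrow in both sets. The log2 fold change was 0.55 (SE 0.12) in M, 0.88 (SE 0.15) without the 6 libraries and 0.37 (SE 0.096) in F. In whole cells it was 0.22 (SE 0.17), with means of 22.5 ± 6.13 CPM (SD, n = 8) and 24.8 ± 8.92 CPM (SD, n = 6), a difference within the spread between libraries. In nuclear libraries D1 spanned 8.63 to 14.5 CPM and D2 15.2 to 19.3 CPM.

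Necab1 (chr4:14952245-15149794, minus strand) encodes an EF-hand protein that binds calcium in neurons. It overlaps 2 antisense genes, Gm11837 over 786 bases and Gm11844 over 9406 bases, and without strand their reads cannot be told apart from its own. Its level in RiboTag M was at lowest 11.7, at the median 18.7 and at highest 23.4 CPM in D1 and 21.3, 27.9 and 32.4 CPM in D2, where D2 number 1 fell within the D1 range. In RiboTag F it was 20.4, 16.3, 16.5, 17.8 and 14.7 CPM in D1 and 27.6, 27.2, 29.2, 29.3 and 31.6 CPM in D2, with no overlap. The log2 fold change was 0.58 (SE 0.11) in M, 0.39 (SE 0.13) without the 6 libraries and 0.76 (SE 0.071) in F. In whole cells it was 0.38 (SE 0.15), with means of 111 ± 24.2 CPM (SD, n = 8) in D1 and 142 ± 60.8 CPM (SD, n = 6) in D2. Fragments counted for Gm11844 came to means of 0.0421 and 0.0520 CPM in the RiboTag M D1 and D2 libraries and those for Gm11837 to 0.899 and 1.14 CPM, where Necab1 had 18.3 and 27.4 CPM.

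B3gat1 (chr9:26733728-26763101, plus strand) encodes the glucuronyltransferase that builds the HNK-1 carbohydrate carried by neural adhesion proteins, and its last 58 bases overlap Glb1l2 on the other strand. Its fold change was larger in whole cells than in RiboTag libraries, a difference that was not tested. In whole cells its level was at lowest 20.8, at the median 26.4 and at highest 37.9 CPM in D1 and 35.1, 60.0 and 101 CPM in D2, with only D2 number 2, the library with most counts in 10 genes, inside the D1 range. The D2 mean was 2.22-fold the D1 mean (log2 fold change 1.19, SE 0.14), and the log2 fold change was 1.21 (SE 0.14) without that library. In RiboTag M it was 5.85, 7.48 and 7.85 CPM in D1 and 8.39, 8.94 and 10.1 CPM in D2, a log2 fold change of 0.32 (SE 0.071), and 0.24 (SE 0.10) without the 6 libraries. In RiboTag F the D1 libraries gave 6.02, 6.03, 7.51, 5.27 and 5.80 CPM and the D2 libraries 10.3, 8.52, 8.98, 9.48 and 8.31 CPM, a log2 fold change of 0.57 (SE 0.087). In nuclear libraries D1 was at 23.5 to 71.1 CPM and D2 at 27.6 to 49.0 CPM, and the log2 fold change of −0.07 (SE 0.17) was smaller than its error. Without the 3 nuclear D1 libraries with most counts in 10 genes it was −0.37 (SE 0.15).

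**Figure D4:**
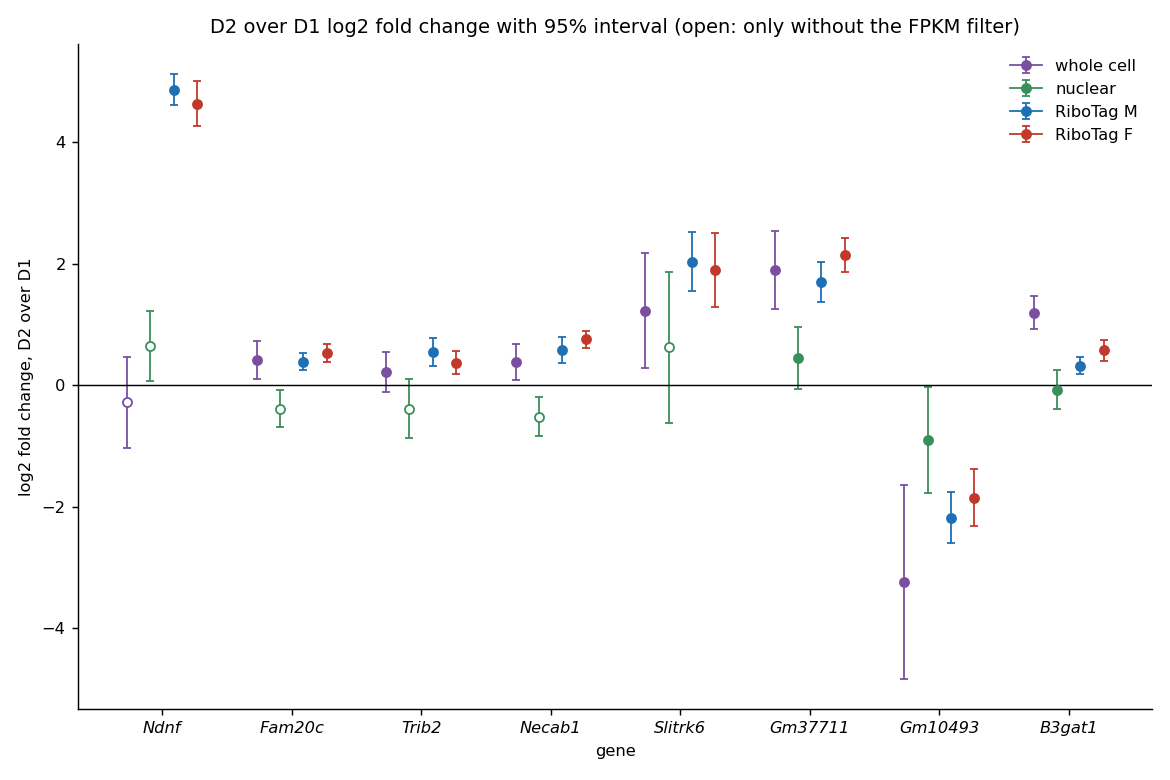
Log2 fold change of D2 over D1 for the 8 genes by method, with 95% intervals; filled points are from the fits with the FPKM filter and open points, for genes that did not pass it, from the fit without it. Ndnf stands at 4.86 and 4.63 in the RiboTag sets and at 0.65 and −0.28 in the nuclear and whole cell libraries, Gm10493 is below 0 throughout, and B3gat1 is at 1.19 in whole cells.

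The nuclear differences depended on how libraries were scaled. Without the FPKM filter, the log2 fold changes of all genes shared by both fits shifted by a median of −1.13 in nuclei and 0.19 in whole cells. The nuclear log2 fold change of Gm37711 turned from 0.45 (SE 0.26) to −0.69 (SE 0.34), a move of about the size of that shift. Fam20c, Trib2 and Necab1 were higher in nuclear D2 libraries in the means given here (1.37-, 1.46- and 1.25-fold) and lower on the other scale (log2 fold changes of −0.38, −0.38 and −0.52). Ndnf and Slitrk6 were higher in nuclear D2, and Gm10493 and B3gat1 lower, on both scales, although with unscaled totals the D2 mean of B3gat1 was 1.09-fold the D1 mean. In whole cell and RiboTag libraries, no member changed direction with the filter.

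Levels per gene length were low, and they varied with the length used. With the gene span as length, 2 genes reached a mean of 1 FPKM in whole cell D2 libraries (Gm37711 at 2.87 and B3gat1 at 2.10 FPKM), and 6 did with summed exons. The count that a gene would collect if fragments fell evenly along the genome was predicted in each library from 1932 olfactory and vomeronasal receptor genes, which are silent in brain or nearly so, and the gene span. For Ndnf, this prediction reached a median of 78.9% of the count in whole cell D1, 88.2% in whole cell D2, 44.1% in nuclear D1 and 62.8% in nuclear D2 libraries, against 3.57% or less in each RiboTag group. After subtraction, Ndnf was at 2.26 ± 0.893 CPM (SD, n = 8) in D1 and 1.69 ± 2.44 CPM (SD, n = 6) in D2 whole cells, within the spread between libraries. The prediction also reached 105% of the count for Slitrk6 and 52.9% for Necab1 in nuclear D2 libraries. For B3gat1 in whole cells it was 24.9% in D1 and 10.3% in D2, and the subtracted means were 21.3 ± 7.35 CPM (SD, n = 8) and 57.0 ± 24.4 CPM (SD, n = 6). With it subtracted, 3 of the 8 genes had a higher mean in nuclear D2 than in nuclear D1 libraries, where 6 did before.

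**Figure D5:**
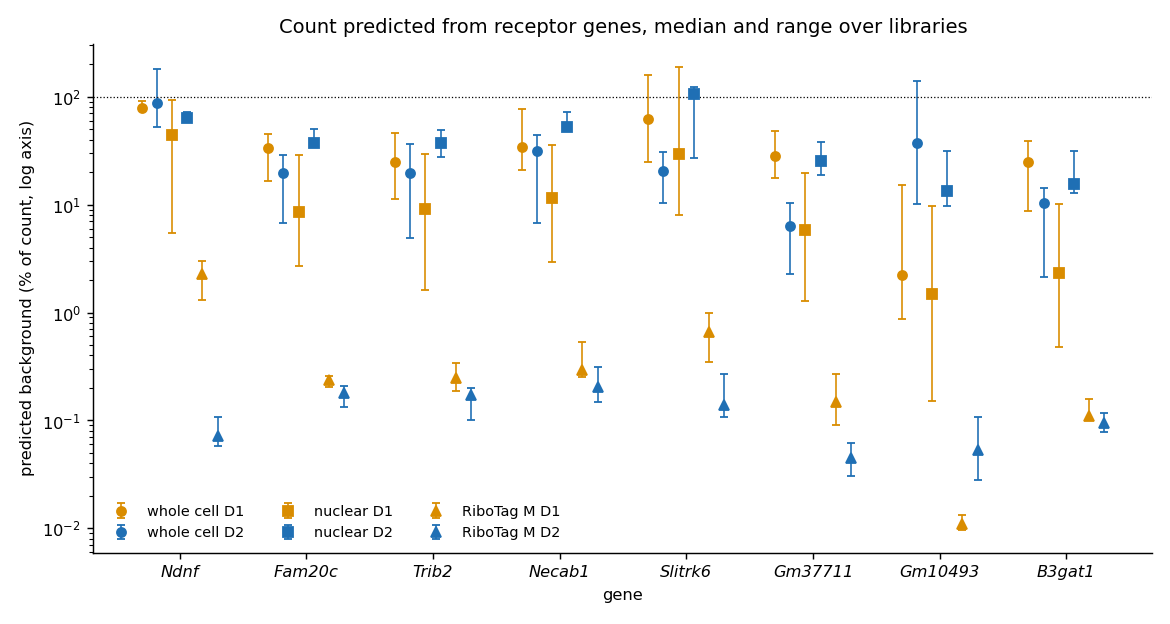
Count predicted from receptor genes as a percentage of the observed count (log axis) for each gene, with the median as a point and the lowest to highest library as a bar, in whole cell (circles), nuclear (squares) and RiboTag M (triangles) libraries, D1 in orange and D2 in blue. Libraries with no count are included, with the lowest possible count put in its place, and the dotted line is at 100%. RiboTag M points lie at 2.26% or less, while those of Ndnf in the sorted libraries lie between 44.1% and 88.2%.

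The RiboTag F libraries allowed a comparison with RiboTag M that the rule had not used. Over all genes, edgeR called none between F and M in D1 libraries (0%, with 561 of 7172 at an unadjusted p under 0.05 and 1 called by DESeq2), 4 in D2 libraries (0.0558%, with 521 unadjusted and 7 called by DESeq2), and none for the interaction of cell type and sex (0%, with 511 unadjusted and 2 by DESeq2). The 4 were Xist, Tsix and Gm26992, which rose in F, and Vgf, which fell, named after their values were seen. None of the 8 genes passed in any of the 3 comparisons, and over 384 values of these genes under all alternatives the smallest adjusted p was 0.0611.

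The smallest unadjusted p-values were those of B3gat1 in D1 and Slitrk6 in D2 libraries. B3gat1 in F and M D1 libraries was at means of 6.13 ± 0.834 CPM (SD, n = 5) and 7.29 ± 0.736 CPM (SD, n = 6), a log2 difference of −0.24 (SE 0.084, adjusted p = 0.482 in edgeR). In D2 libraries its means of 9.12 and 9.09 CPM differed by 0.01 (SE 0.077), and the interaction was 0.25 (SE 0.11, adjusted p = 0.675). For Slitrk6 in D2 libraries the log2 difference was −0.60 (SE 0.22, adjusted p = 0.499 in edgeR), with F at 0.833 ± 0.242 CPM (SD, n = 5) and M at 1.27 ± 0.359 CPM (SD, n = 6). For Ndnf, the difference between F and M was 0.06 (95% interval −0.56 to 0.68) in D1 and −0.17 (−0.38 to 0.05) in D2, and the interaction was −0.23 (−0.89 to 0.43). For Gm37711 the interaction was 0.44 (−0.04 to 0.92). In 6 of the M libraries Xist was above the summed Y-linked genes, so these comparisons are of libraries labelled F and M. Some of the 6 held both signals. The Y-linked sum was 1.78 CPM in M D2 number 6, where Xist was at 2.56 CPM, 0.743 CPM in M D1 number 4 and 0.575 CPM in M D1 number 1. It was at most 0.246 CPM in F D1 and 0.0269 CPM in F D2 libraries.

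Relatives of these genes were examined as a list of 17 (Fam20a, Fam20b, Fam198a, Fam198b, Fjx1, Trib1, Trib3, Necab2, Necab3, Slitrk1 to Slitrk5, B3gat2, B3gat3 and Chst10). In RiboTag M, 10 were tested and 1 rose in D2, none fell, with a median log2 fold change of −0.12 beside 0.0012 over all genes. That gene was Slitrk4, a paralog of Slitrk6, at 0.49 (SE 0.078, adjusted p = 0.000107 in edgeR), with means of 5.84 and 8.17 CPM. Without the 6 libraries its adjusted p was 0.0944 at a log2 fold change of 0.35. In RiboTag F, 10 were tested and none was called, although Slitrk4 was at 0.32 (SE 0.092, adjusted p = 0.0487) and Slitrk5 at −0.34 (SE 0.082, adjusted p = 0.0166), both under the fold required. Slitrk5 differed in sign from Slitrk6, whose RiboTag F log2 fold change was 1.90.

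In whole cell libraries 10 relatives were tested and none was called, with a median of −0.12 beside −0.09 over all genes. Chst10, the sulfotransferase that completes the HNK-1 carbohydrate, was at −0.0033 (SE 0.16), and B3gat3, which makes the linker of proteoglycans, was at −0.65 (SE 0.30, adjusted p = 0.302), where B3gat1 was at 1.19. In nuclear libraries 8 were tested and 2 fell in D2, with a median of −0.56 beside 0.03 over all genes. They were Fjx1, a Golgi kinase related to Fam20c, at −1.15 (SE 0.30, adjusted p = 0.0224), and Necab2 at −0.56 (SE 0.17, adjusted p = 0.0419). Necab2 lost its call when any of the 5 D2 libraries was left out (adjusted p of 0.0633 to 0.134) and Fjx1 without D2 number 1, 2, 3 or 5 (0.0548 to 0.0704), and both lost it without the 3 libraries with most counts in 10 genes (adjusted p = 0.0836 and 0.0719) and under a block for the replicate number (0.443 and 0.492).

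The genes with the pattern most like each member were found among 10567 genes, by the root mean square difference of the 8 group means of log2 CPM, each gene centred on its own mean. The measure covers method as well as cell type, and the groups of 1 method share its way of isolating cells, nuclei or RNA. The nearest to Fam20c were Necab1 (0.09) and Trib2 (0.11), and the nearest to Necab1 were Fam20c and Trib2 (0.14). Trib2 had Fam20c and then Six3os1 (0.11), a transcript opposite Six3, beside it. Ndnf had no close match, and its nearest were Slc5a7 at 0.98 and A830012C17Rik at 1.10, where the median over all genes was 1.87. Nearest to Gm37711 were A830012C17Rik (0.43) and Cacna2d2 (0.59), a calcium channel subunit, and nearest to Slitrk6 were Gm37711 (0.60) and Cbln4 (0.65), a secreted synaptic protein. Gm10493 had Slc35d3 (0.49) and the D1 marker Chrm4 (0.50), the M4 muscarinic receptor, beside it. B3gat1 was nearest to Gm14377 (0.14) and Mtcl1 (0.21), which crosslinks microtubules. Mtcl1 had means of 138 and 211 CPM in D1 and D2 whole cells and 189 and 144 CPM in D1 and D2 nuclei, the same order of groups as B3gat1 within each sort.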

How the data were processed

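The authors ribo-depleted total RNA, made stranded paired-end libraries with the Clontech SMARTer kit, aligned them to GRCm38 with HISAT2 2.0.5 and counted fragments with featureCounts over whole genes of an Ensembl annotation of GRCm38. Fragments that aligned to several places were left out, strand was ignored, and a fragment overlapping several genes was counted for each. They deposited the raw count of fragments per gene for 49 columns, with no normalization. The labels name 8 whole cell D1 and 8 D2 samples, the series' design text gives 9 and 7, and the columns gave 8 and 6 different numbers. The columns of D2 ran from 1 to 6, so the samples labelled D2 replicates 7 and 8 had no column of their number and are not analysed here.

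The 8 genes and the lists of markers and relatives were chosen with earlier results of these data known. The columns of whole cell D2 number 3 (a pair of lanes) and of whole cell D1 number 1 (with its repeat) were each summed, leaving 47 libraries. The mean chi-square per gene was 1.04 between the lanes and 6.90 between number 1 and its repeat, against 20.1 and 58.4 between different mice. All library totals and floors are from these counts.

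A gene was kept if 2 or more libraries had over 1 CPM and if its FPKM, over the gene span in GENCODE vM21, reached 1 somewhere and never passed 50000 (nuclear, whole cell), or reached 0.1 in 2 or more libraries (RiboTag). D1 and D2 were compared within each method, and RiboTag F and M over 4 groups, in R 4.3.3 with edgeR 4.0.16 (glmQLFit and glmQLFTest, TMM, Benjamini-Hochberg over all genes tested). A call in nuclear libraries also needed a standard error under the 75th percentile. Standard errors follow from each log2 fold change and the root of its F statistic, and positive values mean higher in D2, or in F. CPM were scaled by TMM within each method. Calls of the members between D1 and D2 are given as a description, and their p-values are not printed, in RiboTag F either, since their choice names RiboTag libraries of either label. The mixed model used lme4 1.1.37 on log2 CPM with a prior count of 1, scaled by TMM over all libraries in the model. Named genes were the members, the listed relatives and markers, neighbouring genes, and the 2 nearest genes by pattern. Fits were tested on simulated data. Alternatives were DESeq2 1.42.0 as test or as size factors, no FPKM filter, no filter, the replicate number as a block, libraries or repeats left out, other scalings and lengths, and the receptor background subtracted. Promoter sequences were from RefSeq, GRCm38.p6, where 4 of the 8 genes matched. Figures were drawn with Python 3.11.15 and matplotlib 3.10.9. Some results at Gm10493 are not reported here.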

Additional observations from a re-analysis of the deposited data

Results flagged for a closer look

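Of 64 groups of libraries (8 genes in 8 groups), 7 held a library that lay far from the others of its group, where chance gives about 1 in 20. RiboTag M D1 library 5 was the highest for Ndnf (0.915 CPM, the others at 0.43 to 0.57) and for Slitrk6 (0.563 CPM, the others at 0.198 to 0.312), and both values lay below every RiboTag M D2 library. RiboTag M D1 library 1 was the lowest for B3gat1, at 5.85 CPM beside 7.29 to 7.85. Fam20c was at 52.1 CPM in whole cell D1 library 3 beside 34.2 to 42.0, and at 24.5 CPM in whole cell D2 library 2 beside 52.0 to 60.6, the library in which 10 genes held 54.5% of the counts. Slitrk6 was at 5.10 CPM in nuclear D2 library 7 beside 1.19 to 2.11, the library with the smallest total, 3701255. Gm10493 was at 0.511 CPM in nuclear D1 library 6 beside 2.02 to 2.92, where 10 genes held 63.8% of the counts.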

How the results depend on the processing

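Genes called. In nuclear libraries 1130 genes were called (294 higher and 836 lower in D2), against 7274 with no FPKM filter and 7299 with no filter, 0 with the replicate block, 370 to 691 with 1 D2 library left out, and 662 without the libraries with over 50% of counts in 10 genes. In whole cell libraries 174 were called (59 higher, 115 lower), against 707 by DESeq2 (447 higher, 260 lower), 197 with DESeq2's size factors (145 higher, 52 lower), 34 with no FPKM filter (19 higher, 15 lower) and 34 with no filter (17 higher, 17 lower), 92 with the block (20 higher, 72 lower), 328 with the repeat of D1 number 1 as a library of its own and 275 without the library with over 50% of counts in 10 genes. In RiboTag M 174 were called, and 333 with no FPKM filter and 681 with no filter. In RiboTag F 134 were called, 495 with no filter, 70 with the block and 117 to 147 with 1 library left out. Between F and M in D1, where none was called, DESeq2 called 1, no filter gave 139, leaving out 1 F library 0 to 23 (23 without F D1 number 4), and leaving out the 6 M libraries with Xist above the Y-linked genes 6. In D2, where 4 were called, DESeq2 called 7, no filter gave 65, the block 1 and leaving out 1 F library 4 to 7. For the interaction DESeq2 called 2, no filter gave 59 and leaving out 1 F library 0 to 2. Leaving out the libraries with Xist above the Y-linked genes or with most counts in 10 genes, and scaling without the FPKM filter, were chosen after seeing the data. The cause of these changes was not tested.

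Levels. Of the 8 genes, 7 had a higher mean in whole cell D2 than in RiboTag M D2 libraries, and 0 had when TMM ran over all libraries, so that levels are not compared between methods. In whole cell D2 libraries 2 genes reached 1 FPKM, and 6 with summed exons. In nuclear libraries 6 had the higher mean in D2, against 3 with the background subtracted and 2 each with TMM over all libraries and without the FPKM filter. The cell type share of variance was the larger for 2 genes, and for 4 with M and F libraries.

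Direction. Member log2 fold changes between D1 and D2 kept their sign under every alternative in whole cell, RiboTag M and RiboTag F libraries. In nuclear libraries Gm37711 turned to −0.69 with no FPKM filter and −0.67 with no filter, and B3gat1 to 0.026 without D2 number 5 (−0.079 to 0.026 with 1 library left out). Between F and M in D1, the block turned Trib2 to −0.11 and Necab1 to 0.19, leaving out F D1 number 2 or 4 turned Ndnf to −0.01 and −0.26, leaving out number 5 or 6 turned Trib2 to −0.043 and −0.000997 (−0.043 to 0.084 with 1 library left out), and leaving out the 6 M libraries turned Ndnf to −0.35, Fam20c to 0.11 and Gm37711 to 0.36. In D2, B3gat1 turned to −0.0023 with no FPKM filter, −0.042 without F D2 number 1 and −0.0072 without number 5 (−0.042 to 0.037), and Gm10493 to −0.10 with the block and −0.21 without number 6 (−0.21 to 0.29). For the interaction, Necab1 turned to −0.040 with the block, Ndnf to 0.091 without F D1 number 4 (−0.36 to 0.091), Slitrk6 to 0.058 without F D1 number 6 and 0.0043 without F D2 number 3 (−0.36 to 0.058), Gm10493 to −0.032 without F D2 number 6 (−0.032 to 0.47), and without the 6 M libraries Ndnf to 0.15, Fam20c to −0.040, Slitrk6 to 0.22 and Gm37711 to −0.15. None of these passed an adjusted p of 0.05 between F and M. Libraries that share a number were not paired by it: the correlation of their deviations ran from −0.287 to 0.225 in 3 nuclear pairs, −0.214 to 0.154 in 6 whole cell pairs, −0.0260 to 0.147 in 6 RiboTag M pairs and −0.0494 to −0.0195 in 2 RiboTag F pairs, so the block result stands for a shared number only. In the shallowest library, nuclear D2 number 7 with 3701255 counts, a level under 0.811 CPM was not detectable.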

Other observations

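The regions before the RefSeq starts of 4 members differed widely in base composition. Among 32851 promoters, taken as the 250 bases before each RefSeq start on GRCm38.p6, the median GC content was 52.4%. It was 81.2% for Fam20c, 73.6% for Trib2, 53.6% for B3gat1 and 37.2% for Slitrk6. The share of promoters with a lower GC content was 99.1%, 94.7%, 53.9% and 7.31% in that order. The windows of B3gat1 (chr9:26751312-26751561) and Fam20c (chr5:138754831-138755080) lay inside the gene spans given above, and that of Trib2 lay partly inside its span. The letters GGGCGG, searched on both strands, were found once in the Fam20c and at 2 places in the Trib2 window, and 32.7% of all promoters held them. TATAAA was in none of the 4 windows and in 12.4% of all, and TGACGTCA was in none of the 4 and in 1.55% of all.

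The genes that overlap members on the other strand differed between nuclear D1 and D2 libraries. Glb1l2, which overlaps the end of B3gat1, was at means of 0.0690 and 0.0475 CPM in RiboTag M D1 and D2, and at 6.40 and 21.1 CPM in nuclear D1 and D2 libraries, which did not overlap. Gm11844, inside Necab1, was at 1.52 and 5.27 CPM in nuclear D1 and D2 libraries, without overlap, and its D2 to D1 ratio was 3.46, or 1.92 when libraries were scaled on all genes above 1 CPM. Neither passed the FPKM filter, so these values carry no test.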
